A study of Caenorhabditis elegans with 2 samples.

Results

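The ceh genes are homeobox genes of Caenorhabditis elegans, each encoding a transcription factor that binds DNA through a homeodomain. They were taken by name, as every protein-coding gene whose Ensembl name begins with ceh-, leaving out ceh-20, ceh-32, ceh-33 and ceh-34, which gave 59 of 19973 protein-coding genes. The question was whether chromatin immunoprecipitation followed by sequencing (ChIP-seq) of UNC-39, itself a homeodomain factor, placed peaks at these genes. The animals were strain OP186, which has the unc-119(ed3) III allele and carries the transgene insertion wgIs186 that targets unc-39 with an eGFP tag. Whole embryos of mixed stage and mixed sex were used in 1 group of 2 biological replicates, and age is given as unknown. The labels describe an eGFP-tagged target but list unc-39 under antibody, which leaves unclear what was used to pull the protein down. In whole embryos, binding in few cells and weak binding in many cannot be told apart, and no other factor or tag control was analysed here.

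Homeobox genes act as switches of cell identity, and many members are known as terminal selectors that fix the fate of single neuron classes or of muscle. Homeodomain factors of the sine oculis family, to which UNC-39 belongs, work in mesoderm and nervous system, and homeobox genes are often regulated by one another. The members span the Hox, NK, paired-like, LIM, POU, CUT and TALE classes, and 22 of them are divergent or were not assigned to a class here.

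None of the 59 members carried a called UNC-39 summit, while ceh-20, left out of them by the rule, had one. A gene was given every summit, the position of highest signal in a peak, that lay within 2000 bp of one of its transcription start sites (TSSs) or inside the gene. The authors kept 267 regions by irreproducible discovery rate (IDR), a measure of agreement between replicates. None of these fell in such a window of the 59 members, while 325 of 19973 protein-coding genes had one (1.63%). At that share 59 genes would give 0.960, so 0 is near the background, and a count of 0 of 59 allows a share of up to 5.08% by counting error alone. The called regions were the 267 strongest of the pooled list, down to a signal of 44.4, and the strongest summit at any member had a signal of 33.3 and rank 759 of 9046. The signal is the authors' peak score, on a scale of its own in each list.

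Below the called level, the relaxed lists put summits at many ceh genes, at shares somewhat above those of genes in general in windows that were also longer. The relaxed lists are named by the authors as holding peaks and background, so a summit there is not a called region. In the pooled list 25 of 59 members had a summit (42.4%), beside 37.6% of all protein-coding genes. In replicate 1 there were 39 (66.1%, beside 56.0%) and in replicate 2 there were 51 (86.4%, beside 77.4%). The windows of the members were longer, with a median of 4875 bp against 4182 bp, and ran from 4001 to 23503 bp. Per length the lists were close, with 97.7 pooled summits per Mb of member window against 93.4 for all protein-coding genes, 175 against 162 in replicate 1 and 308 against 312 in replicate 2.

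**Figure D1:**
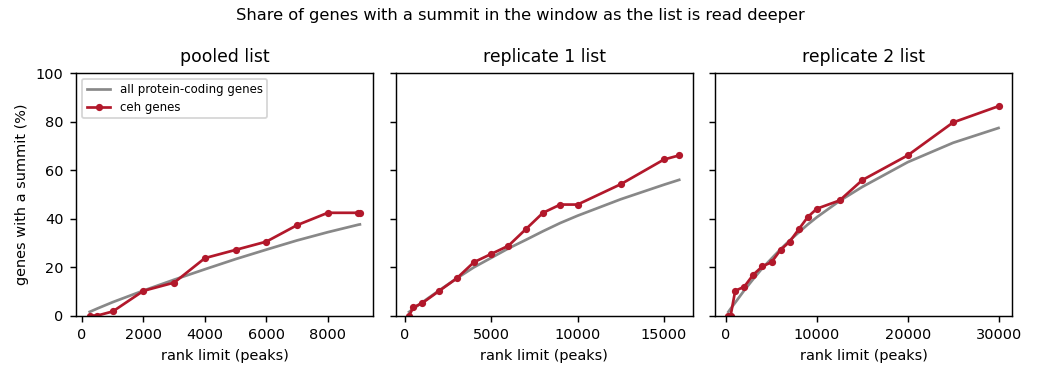
Share of ceh genes (red, n = 59) and of all protein-coding genes (grey, n = 19973) with a summit in the window (y axis, %) as each list is read down to a rank limit (x axis, peaks; rank 1 is the strongest). At a limit of 2000 the red and grey lines stand at 10.2% and 10.3% in the pooled list, and red ends above grey in all 3 lists, as at 86.4% and 77.4% in replicate 2.

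Among the stronger relaxed peaks the members stood near the background at a rank limit of 2000, and on either side of it at tighter limits. Counting only ranks up to 2000, 6 members had a pooled summit (10.2%, beside 10.3% of all protein-coding genes), 6 had one in replicate 1 (10.2%, beside 10.4%) and 7 in replicate 2 (11.9%, beside 10.4%). With ranks up to 1000, there was 1 member in the pooled list (1.69%, beside 5.54%), 3 in replicate 1 (5.08%, beside 5.39%) and 6 in replicate 2 (10.2%, beside 5.32%). With ranks up to 500, there were 0 in the pooled list (beside 2.91%), 2 in replicate 1 (3.39%, beside 2.83%) and 0 in replicate 2 (beside 2.83%). The counts at these limits are small, and their direction differed between the lists. Where a member had a pooled summit, its strongest one had a median signal of 22.7 and a median rank of 3867, against 22.6 and 3937 over all genes with one. In the replicate lists the members were somewhat weaker, with median ranks of 6817 against 6102 in replicate 1 and 9959 against 9379 in replicate 2. In the plot of the share by rank limit the lines for members and for all genes crossed in each list, and in the pooled list the members were above from a limit of 4000 on (23.7%, beside 19.1%).

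The sequences under 6 member summits of the pooled list are given for the NK genes ceh-24 and ceh-51, the Otx gene ceh-37, the PBC genes ceh-40 and ceh-60 and the CUT gene ceh-39. The first 5 printed ranked between 759 and 2016 in the pooled list, and that at ceh-60 is shown for its match to the SIX4-type sequence. Each is the 201 bases around the summit from the RefSeq copy of WBcel235 (the assembly of ce11), read 5′ to 3′ on the strand of the gene, with capitals for a match to one of the 5 motifs searched. Only ceh-37 (CAGCTG) and ceh-60 (TGACACC, here on the other strand) hold capitals. The windows were chrX:1856230-1856430 (minus strand) for ceh-39, chrV:13812827-13813027 (plus strand) for ceh-24 and chrV:18874502-18874702 (plus strand) for ceh-51. They were chrX:12321084-12321284 (minus strand) for ceh-40, chrX:14209321-14209521 (minus strand) for ceh-37 and chrX:6530544-6530744 (minus strand) for ceh-60. The windows lie upstream of the gene except at ceh-51, where the summit is in an intron.
ceh-39: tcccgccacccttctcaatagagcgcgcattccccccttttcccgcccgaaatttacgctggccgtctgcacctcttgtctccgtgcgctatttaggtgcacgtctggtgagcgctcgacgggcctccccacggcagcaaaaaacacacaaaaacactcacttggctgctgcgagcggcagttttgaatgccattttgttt
ceh-24: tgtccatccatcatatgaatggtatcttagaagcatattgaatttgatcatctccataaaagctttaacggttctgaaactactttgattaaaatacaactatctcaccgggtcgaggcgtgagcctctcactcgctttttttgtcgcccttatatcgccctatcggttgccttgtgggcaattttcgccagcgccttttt
ceh-51: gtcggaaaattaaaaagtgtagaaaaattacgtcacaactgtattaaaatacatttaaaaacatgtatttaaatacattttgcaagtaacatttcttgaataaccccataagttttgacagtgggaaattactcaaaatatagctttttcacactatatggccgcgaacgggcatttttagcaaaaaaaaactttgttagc
ceh-40: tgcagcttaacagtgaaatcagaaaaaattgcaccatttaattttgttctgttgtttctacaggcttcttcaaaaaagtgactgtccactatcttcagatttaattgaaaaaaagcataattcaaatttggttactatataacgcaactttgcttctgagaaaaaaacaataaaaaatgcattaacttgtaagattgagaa
ceh-37: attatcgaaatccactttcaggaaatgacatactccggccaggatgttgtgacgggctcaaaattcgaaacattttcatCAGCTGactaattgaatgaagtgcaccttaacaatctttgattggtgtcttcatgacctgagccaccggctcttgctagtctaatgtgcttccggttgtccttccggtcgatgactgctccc
ceh-60: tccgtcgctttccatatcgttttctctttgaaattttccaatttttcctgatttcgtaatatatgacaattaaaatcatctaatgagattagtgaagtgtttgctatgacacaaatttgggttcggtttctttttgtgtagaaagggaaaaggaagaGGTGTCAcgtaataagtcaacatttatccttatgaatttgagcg

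Member summits stood near pooled summits in general in GC content and in the share with each motif. GC content averaged 40.5% ± 7.02 (SD) in the 33 windows of 201 bases at members, beside 41.2% ± 7.0 over all 9046 pooled summits and 47.2% ± 6.37 over the 267 called ones. Motifs were searched on both strands. TGACACC, the sequence known for SIX4-type proteins, lay in 1 of 33 windows (3.03%), at ceh-60, beside 3.47% of all pooled windows. TAATTA, a core that many homeodomains bind, lay in 2 (6.06%, beside 6.86%), one at ceh-31 and one past the 3′ end of ceh-27. The E-box CAGCTG, read by basic helix-loop-helix factors, lay in 3 (9.09%, beside 5.46%), upstream of ceh-27 and ceh-37 and at the weakest of 4 summits in ceh-51. GAGACGCA lay in 1 (3.03%, beside 3.53%), at ceh-83, and GAGAGAGA in 0 of 33, beside 4.90%. The last pair of sequences lay in 10.9% and 12.7% of the called windows and was put on the list because of earlier results from these data. The window at ceh-39 was GC-rich (56.2%, the highest of the member windows), and those at ceh-40 (28.9%) and ceh-51 (29.4%) were AT-rich.

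The CUT genes, which pair a cut domain with a homeodomain and act together in neurons, held the strongest member summit. It lay 158 bp upstream of the TSS of ceh-39, a CUT gene known as an X-chromosome signal in worm sex determination. Its pooled signal was 33.3 at rank 759, with 23.6 at rank 433 of 15880 in replicate 1 and 11 at rank 5734 of 30000 in replicate 2. The summits of the replicates there lay 136 bp apart, so both relaxed lists had a peak at this promoter, by rank the stronger in replicate 1. The deposited −log10 q-values were low, at 0.677 in the pooled list, 0.988 in replicate 1 and 0.381 in replicate 2. No member had a higher value in the pooled list. The highest at members were 1.08 in replicate 1 (ceh-40) and 1.59 in replicate 2 (ceh-22). The nearest called summit to any member lay 2689 bp upstream of the same TSS, within 200 bp of a tRNA gene and nearest to the TSS of T26C11.8, with a pooled signal of 61.6. At ceh-38, a broadly expressed CUT gene on chromosome II, the summit sat in the untranslated part of the transcripts near one of the TSSs, with a pooled signal of 27.9 at rank 1605, 12.6 at rank 6817 in replicate 1 and 16.8 at rank 947 in replicate 2. The replicate summits there lay 18 bp apart, and here the second library was the stronger by rank.

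CUT genes ceh-21 and ceh-41 lie next to ceh-39 on chromosome X and had weaker summits. At ceh-21 the pooled summit lay 1064 bp downstream of the TSS in a coding exon with a signal of 22.7 (rank 3867), with a replicate 2 summit 1065 bp downstream at rank 8144. A stronger replicate 2 summit lay 1287 bp downstream of the TSS, also in coding sequence, with 18.7 (rank 619). The strongest of replicate 1 in the window, 12.6 at rank 6882, lay elsewhere, nearest to the TSS of T26C11.9. At ceh-41 the pooled summit (20.1, rank 6357) lay near the 3′ end and closer to the TSS of T26C11.4. Altogether 4 of the 6 CUT members had a pooled summit, beside 37.6% of all protein-coding genes, and 3 of these 4 sit in this cluster. The remaining CUT members had relaxed summits only in a replicate list, ceh-48 in both and ceh-49 in replicate 2 alone (13.4, rank 2611).

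**Figure D2:**
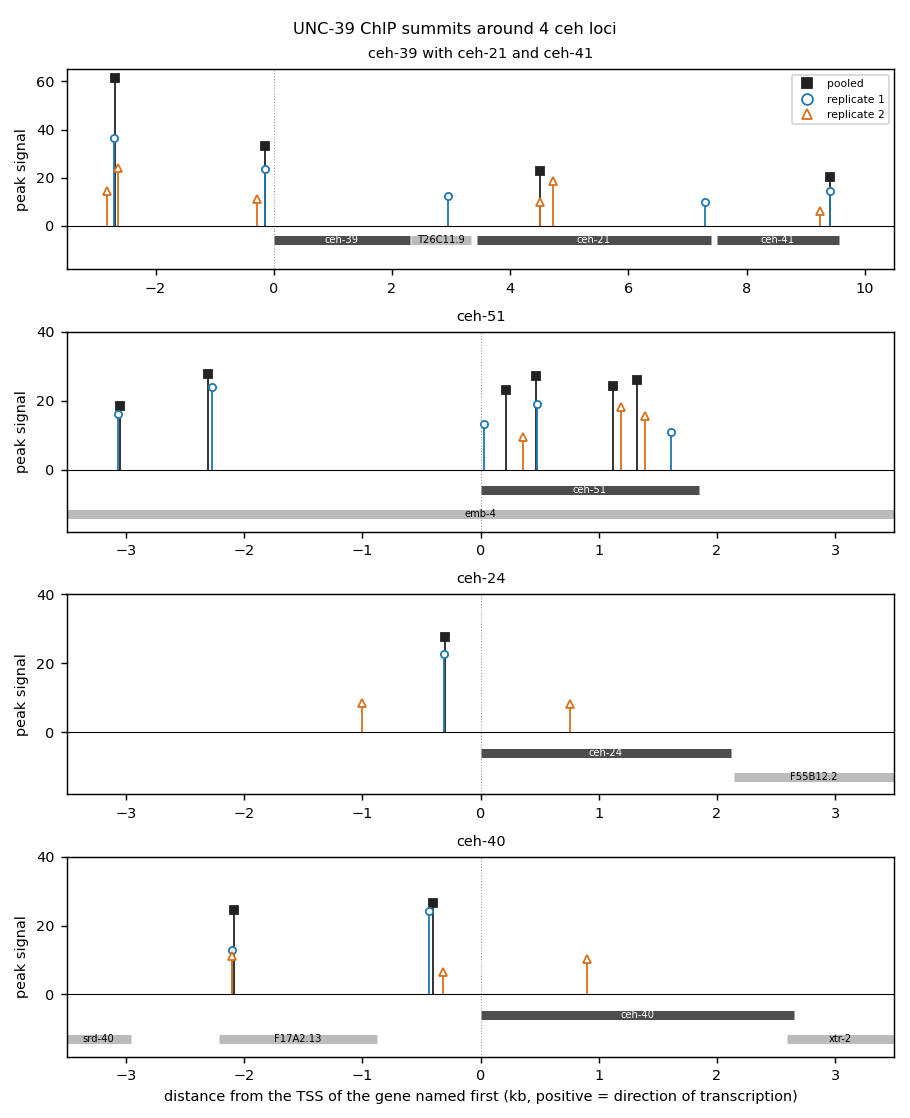
Summits (x axis, kb from the TSS of the gene named first, in its direction of transcription) with their peak signal (y axis, a scale of its own in each list) at 4 ceh loci. Bars below 0 are protein-coding genes, the upper row on the strand of the gene at 0 and the lower row on the other, with ceh genes dark. The pooled summit of signal 61.6 left of ceh-39 is the only called one shown, and at ceh-24 a pooled and a replicate 1 summit stand at the promoter with no replicate 2 summit beside them.

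Of the NK-type genes, which include the regulators of pharyngeal and mesodermal muscle, 7 of 16 had a pooled summit, beside 37.6% of all protein-coding genes. The gene with the most was ceh-51, an NK-type gene that specifies mesoderm descended from the MS blastomere. Its 4 pooled summits had signals of 27.3 (rank 1785), 26.1 (rank 2113), 24.4 (rank 2895) and 23.2 (rank 3537), at 469, 1325, 1116 and 213 bp downstream of the TSS, all inside the gene. At least 4 pooled summits were found at 1 of 59 members (1.69%), beside 267 of 19973 protein-coding genes (1.34%), so the share was near the background. The peaks at ceh-51 overlap in pairs, those at 213 and 469 bp and those at 1116 and 1325 bp. They are therefore not 4 separate stretches. The gene lies inside emb-4, which runs on the other strand, so signal cannot be given to one of the genes alone. In replicate 1 ceh-51 had signals of 19.1 (rank 1074), 13.2 (rank 5762) and 11 (rank 10966), and in replicate 2 it had 18.2 (rank 687), 15.6 (rank 1296) and 9.34 (rank 10182). It was the only member with a summit at rank 2000 or better in both replicates, but those lay at different places, 476 bp downstream of the TSS in replicate 1 and 1187 and 1393 bp downstream in replicate 2. The only pair within 200 bp joined the strongest summit of replicate 1 to the weakest of replicate 2.

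The muscle regulator ceh-24, an NK-type gene active in pharyngeal and vulval muscle and in head neurons, had a pooled summit 304 bp upstream of its TSS. Its signal was 27.5 at rank 1703, and replicate 1 had 22.6 at rank 511 at 314 bp upstream. Replicate 2 had no summit there, and its nearest ones, 8.55 (rank 13152) and 8.05 (rank 15349), lay 1001 bp upstream and 756 bp downstream of the TSS. For ceh-22, the worm relative of tinman and Nkx2.5 in pharyngeal muscle, the reverse held. Replicate 2 had 18.8 (rank 601) in an intron, replicate 1 had 11.9 (rank 8464) near a TSS, and the pooled list had none. The NK-type gene ceh-27 had a pooled summit 184 bp upstream of its TSS (22.6, rank 3986) that replicate 2 shared exactly (18.3, rank 682) and replicate 1 did not. At ceh-28, which is active in the M4 neuron of the pharynx, both summits were in replicate 2 alone (strongest 7.50, rank 18273).

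Other NK-type members had weaker pooled summits than ceh-51 and ceh-24, or none. The BarH-type gene ceh-30, which protects male-specific head neurons from cell death, had a pooled summit 19 bp downstream of its TSS (24, rank 3076), with 16.6 (rank 2062) in replicate 1 and 13.3 (rank 2705) in replicate 2. These replicate summits lay on either side of the TSS, 78 bp downstream and 104 bp upstream, and were even in rank. Its neighbour ceh-31, also of BarH type, had a coding exon summit that the replicates placed 3 bp apart, with 23.2 (rank 3574) in the pooled list, 12.9 (rank 6217) in replicate 1 and 10.7 (rank 6333) in replicate 2. The Distal-less gene ceh-43, active in dopaminergic neurons and anterior epidermis, had 2 intron summits in the pooled list (21.5, rank 4898, and 18.9, rank 8070), the first within 200 bp of a tRNA gene. Replicate 1 had none there and replicate 2 had 5, the strongest 10.2 at rank 7625. The engrailed gene ceh-16, active in seam cells, had a single summit, in replicate 2, at its 3′ end (6.77, rank 22807). The pooled summit of ceh-5 (rank 6555) lay 1427 bp upstream.

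Among the paired-like genes, many of which act in sensory neurons and interneurons, 5 of 8 had a pooled summit (beside 37.6% of all genes). The Otx genes ceh-37, known in the AWB olfactory neurons, and ceh-36, known in the AWC and ASE neurons, are close neighbours on chromosome X. At ceh-37 the summit lay 1421 bp upstream with a pooled signal of 27 (rank 1853), 18.1 (rank 1387) in replicate 1 and 7.67 (rank 17289) in replicate 2, and the replicates placed it 33 bp apart. At ceh-36 an intron summit had 23.3 (rank 3479) in the pooled list and 16.5 (rank 2142) in replicate 1, with none of replicate 2 within 200 bp. A weaker one of ceh-36 (20.3, rank 6110) had both replicates, 124 bp apart. The Rx-type gene ceh-8 had a pooled summit in an intron (25.4, rank 2404) that the replicates placed 39 bp apart, with 16.2 (rank 2316) in replicate 1 and 10.6 (rank 6626) in replicate 2. A second intron summit of ceh-8 was stronger in replicate 1 (17.6, rank 1557) and weaker in the pooled list (rank 6515). The Phox2-type gene ceh-17, which acts in the ALA and SIA neurons, had one 1986 bp upstream (24, rank 3083) that was closer to the TSS of col-52. At the goosecoid-type gene ceh-45, one lay 1027 bp upstream (21.9, rank 4577), with 17.4 (rank 821) in replicate 2 at that place, while the only summit of replicate 1 lay 135 bp upstream (14.2, rank 4239). The Chx10-type gene ceh-10, which acts in the AIY and CAN neurons, had no pooled summit, and its strongest were 14.7 (rank 3704) in replicate 1 and 6.91 (rank 21856) in replicate 2, both in introns.

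Both PBC members of the TALE class, which encode homeodomain cofactors of Hox proteins, had a pooled summit (beside 37.6% of all protein-coding genes), upstream in both. At ceh-40 it lay 407 bp upstream, with a pooled signal of 26.4 (rank 2016), 24.1 (rank 394) in replicate 1 and 6.58 (rank 24174) in replicate 2. The replicate 1 rank was the best of any member in that library. Replicate 2 had a stronger summit in a coding exon 897 bp downstream of the TSS (10.3, rank 7325), so the libraries differed in where the gene had its strongest peak. For ceh-20, the PBC gene left out of the members, the called summit had ranks of 329 and 350 in the replicates, so there the libraries were even. At ceh-60, which acts in the intestine on vitellogenin genes, the summit lay 498 bp upstream and was weak in each list, with 19.1 (rank 7814) in the pooled list, 12.3 (rank 7528) in replicate 1 and 6.87 (rank 22106) in replicate 2.

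The Hox, HB9, LIM and POU members had no pooled summit, beside 37.6% of all protein-coding genes with one. These classes hold only 1 or 2 members each. The labial-type Hox gene ceh-13 had 1 summit, in a coding exon in replicate 2 (7.27, rank 19570). The HB9-type motor neuron gene ceh-12 had 1, in replicate 1 (10.6, rank 12411). At ceh-14, an Lhx3-type LIM gene of sensory neurons and interneurons, replicate 2 had 5 summits, the strongest 14.4 (rank 1864) near the 3′ end, and replicate 1 had 1 (9.99, rank 14872). The POU gene ceh-6, needed for the excretory canal cell, had 2 weak summits in replicate 2 (strongest 8.75, rank 12302), and the POU gene ceh-18, which acts in the gonadal sheath, had summits in both replicate lists but none in the pooled one.

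Of the 22 divergent or unassigned members 7 had a pooled summit, beside 37.6% of all protein-coding genes. The strongest, at ceh-81 on chromosome II, lay 549 bp upstream of its TSS and inside the neighbouring gene btb-9. It had 27.7 (rank 1667) in the pooled list, 13 (rank 5982) in replicate 1 and 12.7 (rank 3289) in replicate 2, and the replicates placed it 5 bp apart, so it was among the more even ones. The others were ceh-91 (21.2, rank 5197), ceh-86 (20.7, rank 5694), ceh-83 (20.3, rank 6109), ceh-63 (rank 6548), ceh-100 (19.4, rank 7394) and ceh-99 (19.3, rank 7417), all below the middle of the pooled list. The summit for ceh-63 was nearer to the TSS of C02F12.5 and that for ceh-100 to that of clec-4. No summit in any list was found at ceh-75, ceh-76, ceh-84 and ceh-90, and ceh-7 joined ceh-12 with one in replicate 1 alone. The 15 members with summits in replicate 2 alone were ceh-2, ceh-6, ceh-9, ceh-13, ceh-16, ceh-23, ceh-28, ceh-49, ceh-54, ceh-62, ceh-74, ceh-79, ceh-87, ceh-89 and ceh-92. In both replicate lists but not in the pooled one were 13 members, ceh-1, ceh-10, ceh-14, ceh-18, ceh-19, ceh-22, ceh-48, ceh-53, ceh-57, ceh-58, ceh-82, ceh-88 and ceh-93. These combinations of lists are given for the members only, without a share over all genes beside them. Taken list by list, 56.0% of all protein-coding genes had a replicate 1 summit and 77.4% a replicate 2 summit.

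**Figure D3:**
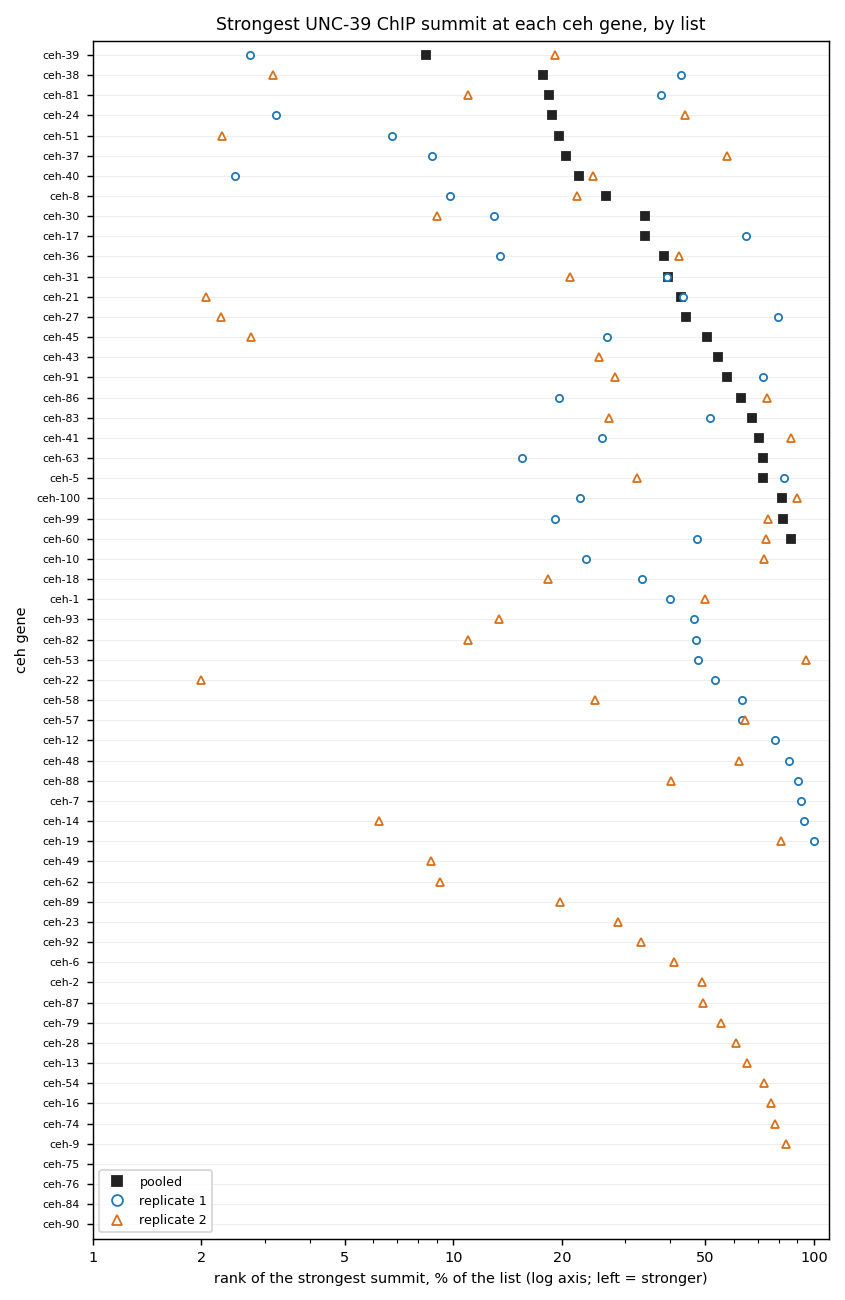
Rank of the strongest summit in the window at each of the 59 ceh genes (rows), as a percentage of the list (x axis, log scale, stronger to the left), in the pooled (filled squares), replicate 1 (circles) and replicate 2 (triangles) lists. A gene with no mark in a list had no summit there, and ceh-39 stands farthest left in the pooled list at 8.39%.

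The replicates ranked the ceh genes differently. Across the 35 members with a summit in both lists, Spearman's rho between the strongest signals was -0.0134. Over 9612 protein-coding genes with both, rho was 0.290, as a description across genes that share the same 2 libraries. Signals at members reached only 24.1 in replicate 1 and 18.8 in replicate 2, against 87.8 and 84.8 over all genes. A rho over 35 genes is also imprecise. Whether this narrower range or the small number of members accounts for the lower rho was not tested. Of the members with a rank of 2000 or better, 5 had it in replicate 1 alone (ceh-8, ceh-24, ceh-37, ceh-39 and ceh-40). There were 6 in replicate 2 alone (ceh-14, ceh-21, ceh-22, ceh-27, ceh-38 and ceh-45) and 1 in both (ceh-51). Over all protein-coding genes 10.4% had such a rank in replicate 1 and 10.4% in replicate 2. The share of all genes with it in both is not given here, so this split cannot be called particular to the members. A pair of replicate summits at most 200 bp apart was found at 15 members (25.4%, beside 25.3% of all protein-coding genes). With both ranks at 9046 or better, the length of the pooled list, there were 5 (8.47%, beside 9.81%), namely ceh-39, ceh-81, ceh-31, ceh-8 and ceh-38. By gene and summit, 16 pairs took up 25.4% of the 63 replicate 1 summits and 15% of the 107 replicate 2 summits at members, against 34.3% and 18% over all genes.

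**Figure D4:**
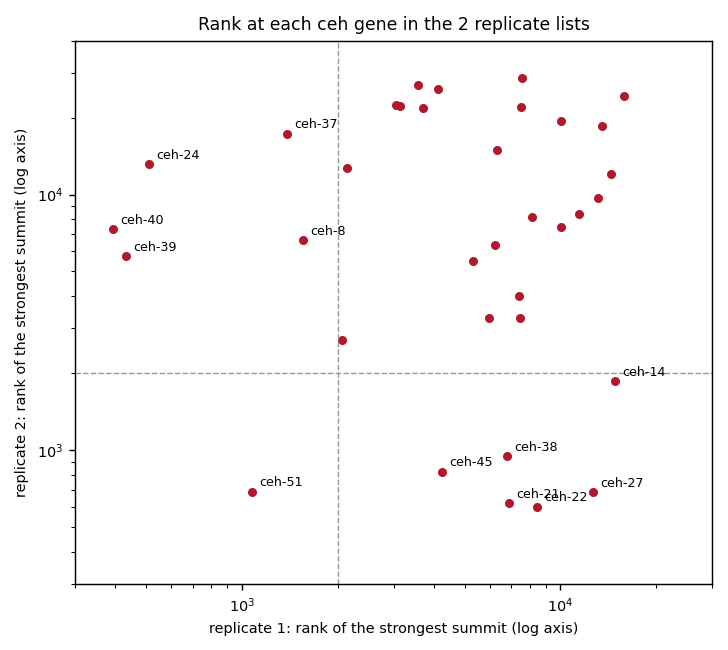
Rank of the strongest summit in replicate 1 (x axis, log scale) and replicate 2 (y axis, log scale) for the 35 ceh genes with a summit in both lists; dashed lines mark rank 2000. Genes within 2000 in either list are named, and only ceh-51 lies in the lower left corner, where both ranks are within it.

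By place, 13 of the 33 pooled summits at members lay upstream (39.4%, beside 38.4% over all genes), 8 in introns (24.2%, beside 25.6%) and 7 in coding exons (21.2%, beside 23.4%). The nearest protein-coding TSS was the member's own for 29 of 33 (87.9%, beside 67.1%). Both shares count a summit once for each gene of the set whose window holds it. Over all genes this made 10969 entries from 7821 summits, while the 33 at members were all distinct. Ties aside, a summit entered for several genes can have its nearest TSS at only a single one of them. This holds down the share over all genes, so the shares are not on the same footing. On chromosome X 10 of 18 members had a pooled summit (55.6%, beside 42.2% of the genes there), and on the autosomes 15 of 41 (36.6%, beside 36.9%). Most of those on X are neighbours, namely ceh-21 with ceh-39 and ceh-41, ceh-30 with ceh-31, and ceh-36 with ceh-37. They are therefore not all separate loci, and window lengths were not compared by chromosome. Of 37 other homeobox genes, listed from general knowledge, none had a called summit (beside 1.63% of all genes) and 20 had a pooled one (54.1%, beside 37.6%). Counting only pooled ranks up to 2000, 4 of them had a summit (10.8%, beside 10.3%). The lengths of their windows were not compared.

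The 2000 bp limit left some stronger peaks just outside. The pooled summits just inside were those of ceh-17 at 1986 bp (24, rank 3083) and ceh-27 at 1972 bp (21.1, rank 5318). Just outside were those of ceh-40 at 2088 bp (24.6, rank 2792), ceh-48 at 2267 bp (41.4, rank 340), ceh-51 at 2309 bp (27.7, rank 1665) and ceh-12 at 2312 bp (37.1, rank 511). The one at ceh-48, a CUT gene of the nervous system, was upstream with that TSS as the nearest protein-coding one, and ranked 534 in replicate 1 and 559 in replicate 2. Its pooled signal stayed under the lowest called one of 44.4. The one past the 3′ end of ceh-12 lay 359 bp from the TSS of col-54. Also within 500 bp of the limit were ceh-91 (1687 bp) and ceh-63 (1817 bp) inside, and ceh-7 (2324 bp), ceh-82 (2378 bp, the summit given above for ceh-81) and ceh-45 (2409 bp) outside.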

How the data were processed

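The submitters deposited peak lists of ChIP-seq on the ce11 assembly for 2 biological replicates, for the replicates pooled and for regions that passed IDR. Column 7 of the deposited lists was read as a score (peak signal) and column 9 as a −log10 q-value. Aligner, peak caller and control: not given in the sources used here. Read depth is unknown. The replicate 2 list holds exactly 30000 peaks, and the relaxed lists hold background. Lists on ce10 were not used, and no coordinate was converted.

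Summits (start plus summit offset) were assigned to protein-coding genes of Ensembl release 115 (WBcel235) within 2000 bp of any TSS or in the gene body, with Python 3.11.15 and numpy 2.4.6, and peaks were ranked by signal in each list. Replicate summits at most 200 bp apart were called a pair. The assignment was checked on simulated data. With 1 group no test was possible, and counts were set beside those over all protein-coding genes. By rule, the genes named were the members with a called summit, the 20 with the strongest pooled summits and those with a replicate pair within the first 9046 ranks of each list. The rule also took 12 members with roles near those known for unc-39, the members without any summit and those within 500 bp of the window's edge. ceh-18, ceh-49 and the weaker members named to account for every gene were added after their values were seen. The members, gene lists and motifs were chosen with earlier results of these data known. Classes and roles are from general knowledge.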

Additional observations from a re-analysis of the deposited data

How the results depend on the processing

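The count of 0 members with a called summit was the same under all 10 alternatives tried. Most of these took a shorter window or only a part of the called summits, so they could only return 0. The alternatives that could have raised the count left out a replicate or took more of the strongest pooled peaks, and they also gave 0. No wider window was tried, and the nearest called summit lay 2689 bp from the TSS of ceh-39. Of the 25 members with a pooled summit, 11 were left with the gene body alone as the window and 14 with the stronger part of the pooled list. Without one replicate the count ran from 24 to 27. These are counts at about the length of the pooled list, and the whole lists gave 39 in replicate 1 and 51 in replicate 2. The 15 members with a replicate pair became 8 in the gene body alone, 8 with summits at most 100 bp apart, 7 with the stronger part of each replicate list and 5 with as many of the strongest peaks as the pooled list has. Each of these takes a shorter window, fewer peaks or a smaller gap between paired summits by construction, and the count over all protein-coding genes fell under each as well. The median percentile of the strongest member summit was 42.7 in the pooled list, beside 43.5 over all genes with a summit. It was 42.9 in replicate 1 (beside 38.4) and 33.2 in replicate 2 (beside 31.3), and the cause was not tested. The lists carry no read counts, so depth behind a summit cannot be given, and 2 libraries do not allow an error on any value.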
